A study of Mus musculus with 12 samples.

Results

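Chromatin accessibility was described here over 1 cluster of genes on mouse chromosome 1, which holds Cd28, Ctla4 and Icos in that order on the + strand. Members were the open chromatin regions (OCR) that overlap the body of 1 of these genes or the 20 kb on either side of it, and they number 63 of the 118680 deposited regions. The Cd28 window (gene body at chr1:60773644-60830203, mm9) held 23 regions, the Ctla4 window (chr1:60943844-60972676) held 27, and the Icos window (chr1:61034771-61057164) held 13. Another 22 regions lie between the windows and were not members. The libraries were made by ATAC-seq, in which the Tn5 transposase inserts adapters into accessible DNA, from 100000 spleen-derived YFP+ Treg each. The 4 groups of 3 libraries were ex vivo and stimulated Treg of WT mice (Foxp3-YFP-Cre) and of Ikzf1-cko mice (Ikzf1-fl-Foxp3-YFP-Cre), where stimulation was 4 hr on plate-bound anti-CD3 and anti-CD28. All mice carried the Foxp3-driven Cre and YFP, so that the groups of 1 state differed by the floxed Ikzf1 allele, which is deleted in cells that have expressed Foxp3. The age of these mice is not given in the sources used here, and the replicates are described as biological.

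CD28, CTLA-4 and ICOS are related receptors of the T cell surface. CD28 binds CD80 and CD86 and supplies the costimulatory signal that accompanies T cell receptor engagement, CTLA-4 binds the same ligands with higher affinity and removes them from antigen-presenting cells, and ICOS binds ICOS ligand and signals through PI3K. Treg express Ctla4 constitutively and depend on it for suppression, and ICOS is abundant on effector Treg. Ikaros, the product of Ikzf1, is a zinc finger factor that binds DNA at GGGAA sequences. Anti-CD28, one of the antibodies used for the stimulation, engages the product of Cd28 itself.

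Of the 63 members, 51 had at least 3.6 CPM (counts scaled to the library's total) in at least 3 libraries and were tested, 20 in the Cd28 window, 23 in the Ctla4 window and 8 in the Icos window. Libraries held 4808916 to 8596567 counted reads in WT and 9221901 to 15355521 in Ikzf1-cko Treg, so that depth and genotype moved together, and a value from few reads was less precise in WT. The 10% of regions with the highest level held 40.7 to 43.5% of the reads of the stimulated WT libraries and 49.7 to 56.6% of the reads of every other library, and the Spearman correlation between libraries of 1 group was 0.789 to 0.834 in stimulated WT and at least 0.909 elsewhere. Since members are stronger than most regions (median level 12.9 FPKM, against 7.60 over all regions), this difference between libraries bears on each comparison with stimulated WT, and its part in those results was not tested, except that each was refitted after a loess normalization against abundance, and values from that fit are given below where it ended a call that is described. A region lay over the start of 7 of 8 T cell and Treg marker genes (Ikzf2 had none), of 0 of 4 B cell, 0 of 3 erythroid and 1 of 4 myeloid genes (Cd14, not Csf1r, Lyz2 or Itgam). In the list for NK and CD8 T cells 3 of 4 genes had one (Cd8a, Cd8b1 and Klrb1c, not Ncr1). The summed level of those 3 regions was 25.3 to 29.2 FPKM in ex vivo WT, 16.1 to 21.0 in ex vivo Ikzf1-cko, 25.5 to 28.8 in stimulated WT and 18.3 to 22.0 in stimulated Ikzf1-cko, lower in all Ikzf1-cko libraries than in all WT libraries. The genes were not alike in this. Ex vivo means in WT and Ikzf1-cko were 8.45 and 3.58 FPKM at Cd8a, 13.4 and 8.92 at Cd8b1, and 5.02 and 5.37 at Klrb1c. In stimulated cells they were 9.47 and 5.81, 11.8 and 9.52, and 5.95 and 4.97. The Cd8a and Klrb1c regions did not reach the CPM needed for testing. The part of these levels in the differences between genotypes below was not tested. The summed level of the 7 T cell and Treg regions, of which the Ctla4 start is 1, was 194 to 197 FPKM in ex vivo WT, 217 to 234 in ex vivo Ikzf1-cko, 144 to 183 in stimulated WT and 191 to 211 in stimulated Ikzf1-cko. The floxed exon is not named in the sources used here, and the 28 tested regions over Ikzf1 (chr11:11585006-11672929) had log2 fold changes of -1.27 to 1.03 ex vivo, so that accessibility there checked no label.

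The first group of sequences shows the reference (mm9, + strand) just before the start of the coding transcript of each gene, inside the region that covers this start. They are shown because these 3 regions are among the 6 most accessible of the locus. None of the 3 stretches holds GGGAA or TGANTCA on either strand, the sequences whose matches are set in capitals here and below.
Cd28 start, OCR_2073, chr1:60802901-60803200: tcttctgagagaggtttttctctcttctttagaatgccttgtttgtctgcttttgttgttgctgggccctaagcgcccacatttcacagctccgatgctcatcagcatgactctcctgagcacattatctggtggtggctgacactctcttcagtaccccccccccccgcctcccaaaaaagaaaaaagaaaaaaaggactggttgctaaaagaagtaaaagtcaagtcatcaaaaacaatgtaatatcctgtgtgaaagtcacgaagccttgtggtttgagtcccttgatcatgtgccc
Ctla4 start, OCR_2123, chr1:60965731-60965868: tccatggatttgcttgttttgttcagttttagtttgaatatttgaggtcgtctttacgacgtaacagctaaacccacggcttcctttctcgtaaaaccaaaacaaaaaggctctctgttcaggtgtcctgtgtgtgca
Icos start, OCR_2144, chr1:61034533-61034770: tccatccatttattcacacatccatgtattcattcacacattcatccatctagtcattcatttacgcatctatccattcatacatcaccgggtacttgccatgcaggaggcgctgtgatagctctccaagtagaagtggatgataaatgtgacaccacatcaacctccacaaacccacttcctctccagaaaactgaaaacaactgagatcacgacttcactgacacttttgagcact

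The second group holds the central 300 bases of regions on which the comparisons below turn. OCR_2127 and OCR_2129, in and downstream of Ctla4, are shown for their levels and their difference between genotypes and were picked after their values were seen. OCR_2126, OCR_2069 and OCR_2076 are shown for called changes, namely the largest fall on stimulation in WT, the only called difference between genotypes ex vivo, and the largest rise of a tested member on stimulation. GGGAA or its complement TTCCC occurs 3 times in the stretch of OCR_2129, 1 time each in those of OCR_2127, OCR_2126 and OCR_2076, and not in that of OCR_2069.
OCR_2127, Ctla4, chr1:60970147-60970446: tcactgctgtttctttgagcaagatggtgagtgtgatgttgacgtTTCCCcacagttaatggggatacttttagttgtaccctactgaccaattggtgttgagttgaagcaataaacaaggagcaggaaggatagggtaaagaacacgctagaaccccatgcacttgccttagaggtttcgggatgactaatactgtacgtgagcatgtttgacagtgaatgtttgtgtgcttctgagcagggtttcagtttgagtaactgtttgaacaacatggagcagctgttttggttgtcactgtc
OCR_2129, downstream of Ctla4, chr1:60977191-60977490: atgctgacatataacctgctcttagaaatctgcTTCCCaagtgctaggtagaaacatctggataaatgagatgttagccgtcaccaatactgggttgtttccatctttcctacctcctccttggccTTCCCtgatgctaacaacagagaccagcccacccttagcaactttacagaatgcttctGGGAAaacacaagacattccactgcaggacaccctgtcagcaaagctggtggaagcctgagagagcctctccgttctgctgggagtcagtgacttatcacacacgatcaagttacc
OCR_2126, Ctla4, chr1:60969500-60969799: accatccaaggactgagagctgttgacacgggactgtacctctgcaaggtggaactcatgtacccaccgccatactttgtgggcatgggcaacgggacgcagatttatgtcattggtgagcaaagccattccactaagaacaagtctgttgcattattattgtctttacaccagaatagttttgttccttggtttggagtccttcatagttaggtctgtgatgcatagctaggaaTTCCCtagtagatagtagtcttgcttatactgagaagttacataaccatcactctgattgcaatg
OCR_2069, upstream of Cd28, chr1:60770072-60770371: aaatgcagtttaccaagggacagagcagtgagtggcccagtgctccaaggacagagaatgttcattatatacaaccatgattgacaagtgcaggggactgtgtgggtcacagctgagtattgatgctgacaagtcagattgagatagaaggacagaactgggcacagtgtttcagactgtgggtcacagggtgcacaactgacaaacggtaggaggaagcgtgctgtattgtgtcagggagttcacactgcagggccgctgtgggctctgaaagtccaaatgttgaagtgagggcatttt
OCR_2076, Cd28 intron 1, chr1:60809867-60810166: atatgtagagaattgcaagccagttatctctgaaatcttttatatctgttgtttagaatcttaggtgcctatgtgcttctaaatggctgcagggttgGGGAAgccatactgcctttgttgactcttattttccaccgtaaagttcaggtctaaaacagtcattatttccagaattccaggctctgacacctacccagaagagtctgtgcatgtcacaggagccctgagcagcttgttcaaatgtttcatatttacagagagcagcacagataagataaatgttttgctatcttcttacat

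Motifs were sought in 300 bases about the center of each tested region, which for a shorter region include flanking sequence. GGGAA was present at 24 of 51 members (47.1%), against 59.3% of all 69957 tested regions. TTCNNNGAA, the letters of a STAT site, was present in 10 members (19.6%, against 8.32% of all), CTTTGA, the core bound by TCF factors, in 12 (23.5%, against 18.7%), and TGTGGT, the core bound by Runx factors, in 17 (33.3%, against 25.02%). TGANTCA, the letters of an AP-1 site, was present in 9 (17.6%, against 13.8%), GTAAACA, a forkhead sequence, in 2 (3.92%, against 3.77%), and GGAAA, the core bound by NFAT, in 32 (62.7%, against 60.2%). Both strands were searched, and a match describes letters only.

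At Cd28 and Icos the region over the start of the coding transcript had the highest level of its window, and at Ctla4 a region inside the gene had a higher level than the start. The strongest member was OCR_2127 (chr1:60970020-60970573, over exon 3 of Ctla4 and the introns on either side), with a mean of 57.7 FPKM over the 12 libraries. It was followed by the Ctla4 start OCR_2123 (chr1:60965603-60966157, 47.1 FPKM), the Cd28 start OCR_2073 (chr1:60802687-60803413, 43.9 FPKM), OCR_2124 in Ctla4 intron 1 (36.0 FPKM), OCR_2088 downstream of Cd28 (35.9 FPKM) and the Icos start OCR_2144 (chr1:61034467-61034897, 35.2 FPKM). FPKM is a level per kb of region, scaled by the counted reads of the library, so that these levels can be set side by side. The Ctla4 and Cd28 annotations also hold noncoding transcripts that start farther upstream. OCR_2114 covers this upstream start in Ctla4, at a mean of 21.1 FPKM, and no region covers it in Cd28.

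**Figure D1:**
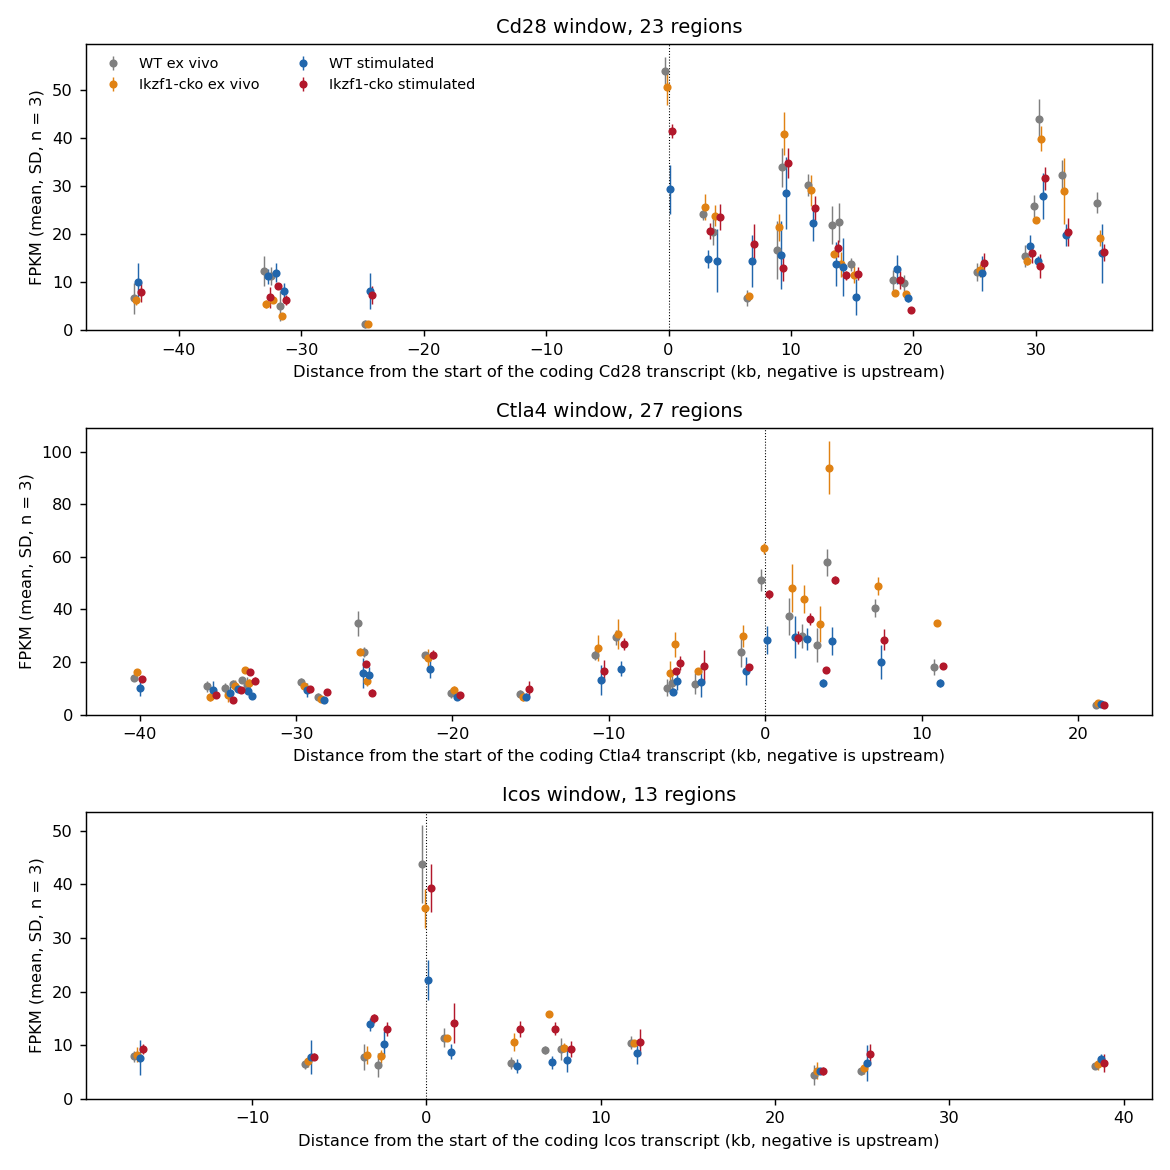
Mean FPKM (points) with SD (bars, n = 3) of each of the 63 regions in the 4 groups, against the distance in kb from the start of the coding transcript of its gene, in 1 panel for each window with its own vertical scale. The start regions stand out at the dotted lines, and the region 4.2 kb into Ctla4 (OCR_2127) reaches 93.9 FPKM in ex vivo Ikzf1-cko Treg.

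The start regions did not rank the groups in the same order. At the Ctla4 start the mean was 63.2 FPKM ± 2.08 (SD, n = 3) in ex vivo Ikzf1-cko, 51.2 ± 4.18 in ex vivo WT, 45.8 ± 1.71 in stimulated Ikzf1-cko and 28.4 ± 5.32 in stimulated WT, and only the neighbours ex vivo WT and stimulated Ikzf1-cko overlapped. At the Cd28 start it was 54.1 FPKM ± 2.71 in ex vivo WT, 50.7 ± 3.78 in ex vivo Ikzf1-cko, 41.5 ± 1.55 in stimulated Ikzf1-cko and 29.3 ± 5.07 in stimulated WT, and the 2 ex vivo groups overlapped. At the Icos start it was 43.8 FPKM ± 7.21 in ex vivo WT, 39.4 ± 4.47 in stimulated Ikzf1-cko, 35.5 ± 3.70 in ex vivo Ikzf1-cko and 22.2 ± 3.78 in stimulated WT. There each group overlapped its neighbour, except that the stimulated WT libraries lay below all others.

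The first comparison asked how Ikaros-deficient Treg differed from WT Treg before stimulation. By the threshold given next, 3 of 5 tested regions in the Ctla4 body from its coding start and 1 of 2 downstream were more accessible in Ikzf1-cko than in WT. A pair of regions upstream of Ctla4 and a pair upstream of Cd28 were less accessible, and an intronic region of Icos was more accessible. At a false discovery rate (FDR, the Benjamini-Hochberg adjusted p of edgeR's quasi-likelihood test over all tested regions) under 0.05, 6 of 51 members rose and 5 fell. These 11 of 51 members were close to the share of all tested regions, 21.5%, where 8.78% rose and 12.7% fell. With a log2 fold change over 1 in addition, the rule for a called region, 1 member was called, OCR_2069, which fell, against 4.63% of all tested regions, where 0.588% rose and 4.04% fell. The median log2 fold change was 0.06 over the tested members and -0.13 over all tested regions. TMM scaling moved the second median to -0.02 and the first to 0.18. With it 11 members were higher and 4 lower at an FDR under 0.05, against 14.4% and 8.69% of all tested regions. In counts thinned to the smallest library the medians were -0.03 over the members and -0.13 over all tested regions. Among regions with at least 3.6 CPM in all 12 libraries (24 members of 34257 regions) they were nearly equal, at 0.037 and 0.038.

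In the Ctla4 body from the coding start on, all 5 tested regions had a positive log2 fold change ex vivo, of 0.30 to 0.69, and 3 of them passed the FDR. Of the 7 tested regions from the upstream noncoding start to the coding start, 6 were positive and 1 negative, and 1 passed. At OCR_2127 the ex vivo WT libraries had 56.6, 53.6 and 63.6 FPKM and the Ikzf1-cko libraries 87.6, 105 and 88.7. All Ikzf1-cko libraries lay above all WT libraries, and the log2 fold change was 0.69 ± 0.10 (SE, FDR = 5.03e-06). The difference passed the FDR in all 21 alternatives of scaling, filter, test, depth and libraries, at log2 fold changes of 0.59 to 0.81.

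OCR_2129 (chr1:60976986-60977695), 4.3 kb past the end of Ctla4, had the smallest FDR of the locus ex vivo. Its libraries were at 15.7, 17.4 and 21.5 FPKM in WT and at 35.2, 34.9 and 33.8 in Ikzf1-cko. The groups were well apart, with a log2 fold change of 0.91 ± 0.12 (FDR = 1.60e-06), and it passed the FDR in all 21 alternatives. OCR_2128 (chr1:60973134-60973986), which lies between this region and the gene, had 37.4 to 44.2 FPKM in WT and 45.2 to 51.7 in Ikzf1-cko and did not pass (log2 fold change 0.26 ± 0.11, FDR = 0.0891).

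The Ctla4 start itself rose by less. OCR_2123 had 46.5, 54.4 and 52.6 FPKM in ex vivo WT and 62.0, 65.6 and 62.1 in ex vivo Ikzf1-cko, with no overlap, and a log2 fold change of 0.30 ± 0.10 (FDR = 0.0269). Without WT ex vivo replicate 1 the FDR was 0.130. It was 0.109 when Ikzf1-cko ex vivo replicate 2 was left out and 0.0951 after loess normalization (log2 fold change 0.21), and the region no longer passed in 5 of 21 alternatives. OCR_2125 in intron 1 also rose (0.54 ± 0.15, FDR = 0.0102; 0.0559 without WT ex vivo replicate 1), as did OCR_2119, 6.0 kb upstream of the start (0.69 ± 0.21, FDR = 0.0158; 0.168 without WT ex vivo replicate 3, and 0.156 when Ikzf1-cko ex vivo replicate 2 was left out).

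A pair of neighbouring regions upstream of Ctla4 went the other way. OCR_2112 (chr1:60939661-60940037) and its neighbour OCR_2113 (chr1:60940275-60940500) lie 25.8 and 25.4 kb before the coding start. OCR_2112 had 29.1, 36.9 and 38.0 FPKM in ex vivo WT and 22.5, 25.3 and 24.3 in ex vivo Ikzf1-cko (log2 fold change -0.55 ± 0.15, FDR = 0.00861), and OCR_2113 had 24.7, 25.2 and 21.6 against 13.5, 13.8 and 10.6 (-0.90 ± 0.24, FDR = 0.00668). Both fell, with no overlap between genotypes. The FDR of OCR_2112 was 0.0548 without WT ex vivo replicate 2 and 0.0536 without replicate 3, and the region no longer passed in 5 of 21 alternatives. That of OCR_2113 was 0.103 after loess normalization, at -0.56. OCR_2113 reached 3.6 CPM in 5 libraries, all of them WT, so it was tested only through the genotype in which it was higher. The other 7 tested regions upstream of Ctla4 lay between -0.69 and 0.36 and did not pass.

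In the Cd28 window no region rose ex vivo and 3 of 20 fell. OCR_2069 (chr1:60770066-60770377), 3.3 kb before the annotated body of Cd28 and 32.8 kb before its coding start, had 11.7, 15.7 and 9.69 FPKM in WT and 5.84, 6.29 and 4.66 in Ikzf1-cko, on 17 to 37 reads a library. It was the called region (log2 fold change -1.13 ± 0.32, FDR = 0.0127), but the FDR was 0.119 without WT ex vivo replicate 2, 0.252 after loess normalization (-0.53) and 0.204 in thinned counts (-0.69). OCR_2069 reached 3.6 CPM in 4 libraries, all of them WT, so it was tested only through the genotype in which it was higher. The adjacent OCR_2070 had 12.9, 11.8 and 9.29 FPKM in WT against 6.03, 7.25 and 5.90 in Ikzf1-cko. Its groups did not overlap either, and it fell by 0.80 ± 0.19 on the log2 scale (FDR = 0.00346) and passed in all 20 alternatives. The third was OCR_2090, 35.3 kb past the coding start (-0.47 ± 0.16, FDR = 0.0318), which no longer passed in 9 of 21 alternatives (-0.42 and an FDR of 0.0577 after loess normalization). At the Cd28 start the difference was -0.09 ± 0.09 (FDR = 0.483).

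In the Icos window the intronic region OCR_2147 (chr1:61041837-61042556, 7.1 kb into the gene) rose and the start did not pass. OCR_2147 had 8.55, 9.94 and 8.89 FPKM in ex vivo WT and 15.6, 15.5 and 16.4 in ex vivo Ikzf1-cko. The 2 groups were far apart, at a log2 fold change of 0.79 ± 0.15 (FDR = 0.000299), and the region passed in all 21 alternatives. The Icos start had 36.2, 44.9 and 50.5 FPKM in WT and 38.8, 36.3 and 31.5 in Ikzf1-cko, which overlap (-0.32 ± 0.13, FDR = 0.0690). Over the locus 9 members were higher and 10 lower with no overlap between the ex vivo genotypes, against 14.9% and 21.0% of all tested regions. The 10 include OCR_2069, OCR_2105 and OCR_2113, which reached 3.6 CPM in WT libraries only. They were thus tested only through the genotype in which they were higher.

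The second comparison set stimulated Ikzf1-cko against stimulated WT Treg. The starts of all 3 genes, OCR_2127 and OCR_2129 at Ctla4 and the same intronic region of Icos were more accessible in the Ikzf1-cko libraries, and 11 of the 16 members that were higher lie in the Ctla4 window. At an FDR under 0.05, 16 of 51 members were higher and 2 lower, against 51.0% of all tested regions in either direction, made up of 20.4% higher and 30.7% lower. None of the members was called by edgeR's quasi-likelihood test with the fold limit, against 21.3% of all tested regions, made up of 1.16% higher and 20.2% lower. At an unadjusted p under 0.05 there were 21 members, against 56.3% of all tested regions. DESeq2 called 2 members, against 20.5% of all tested regions, and limma 0, against 18.8%. After loess normalization 15 members were higher and 0 lower at an FDR under 0.05, against 13.5% and 15.3% of all tested regions. Leaving out WT stimulated replicate 1 gave 9 higher and 1 lower at that FDR, against 11270 and 18079 of the 69957 tested regions. Without WT stimulated replicate 2 there were 4 called members, against 15818 of all tested regions. Without replicate 3 there were 3, against 14693, and without Ikzf1-cko stimulated replicate 2 there was 1, against 14761. The median log2 fold change was 0.31 over the members and -0.11 over all tested regions. Among regions with at least 3.6 CPM in all 12 libraries (24 members of 34257 regions) the medians were 0.35 and 0.18, both positive. There 12 members were higher and 0 lower at an FDR under 0.05, against 12564 and 3377 of the 34257 regions. Of these members 0 were called, against 500 regions called higher and 358 called lower. The stimulated WT libraries stand apart from the others, as described above, and all values of this comparison rest on them.

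At the Ctla4 start the stimulated WT libraries had 25.6, 34.6 and 25.1 FPKM and the stimulated Ikzf1-cko libraries 46.9, 43.8 and 46.7. The groups did not overlap (log2 fold change 0.69 ± 0.12, FDR = 2.86e-05), and the difference passed in all 21 alternatives, at 0.39 to 0.85. OCR_2127 had 27.5, 33.6 and 22.9 FPKM in WT and 49.7, 50.7 and 52.7 in Ikzf1-cko, again without overlap (0.86 ± 0.12, FDR = 2.73e-06). OCR_2129 stood at 10.48, 13.6 and 12.01 FPKM against 17.6, 18.5 and 19.8 (0.64 ± 0.15, FDR = 0.000809). So both regions that led the ex vivo comparison in the Ctla4 window were also higher in stimulated Ikzf1-cko Treg. The ex vivo comparison did not use these libraries. According to the methods, however, the sorted Treg were divided between stimulation and no stimulation, so libraries of both states may share mice.

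Upstream of the Ctla4 start, OCR_2119 had 7.10, 9.20 and 9.70 FPKM in stimulated WT and 16.2, 17.3 and 16.8 in stimulated Ikzf1-cko (0.96 ± 0.23, FDR = 0.000885). OCR_2108 (chr1:60932070-60932686), 33.2 kb before the start, was higher as well (0.87 ± 0.17, FDR = 0.000106). The broad OCR_2118 (chr1:60955316-60956583), 9.3 kb before the start, had 15.3, 20.6 and 16.6 FPKM against 24.5, 29.1 and 27.0 (0.62 ± 0.13, FDR = 0.000253; 0.30 with an FDR of 0.0506 after loess normalization). Against these, OCR_2113 was lower in stimulated Ikzf1-cko, as it was ex vivo, at 17.6, 16.2 and 11.96 FPKM in WT and 9.12, 6.75 and 9.26 in Ikzf1-cko. In both states OCR_2113 was tested only through the genotype in which it was higher, as all 5 libraries that reached 3.6 CPM there were WT. Its log2 fold change was -0.87 ± 0.29 (FDR = 0.0129), with -0.30 and an FDR of 0.469 after loess normalization, an FDR of 0.149 in thinned counts, 0.0756 without WT stimulated replicate 1 and 0.0505 without Ikzf1-cko stimulated replicate 2.

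At the Cd28 start the stimulated WT libraries had 23.7, 33.4 and 30.9 FPKM and the Ikzf1-cko libraries 40.0, 41.4 and 43.1, with no overlap (0.51 ± 0.11, FDR = 0.000377). This difference was 0.19 with an FDR of 0.145 after loess normalization. OCR_2082 in Cd28 intron 1 (chr1:60818441-60818948), 15.2 kb past the start, was also higher (0.78 ± 0.25, FDR = 0.00892), although the value was 0.35 with an FDR of 0.322 in counts thinned to the smallest library, and the FDR was 0.124 without WT stimulated replicate 1 and 0.0535 without replicate 3. The pair upstream of Cd28 that fell ex vivo did not pass in stimulated cells, at -0.70 ± 0.34 for OCR_2069 (FDR = 0.0884) and -0.36 ± 0.20 for OCR_2070 (FDR = 0.123).

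In Icos the start had 21.5, 26.3 and 18.8 FPKM in stimulated WT and 36.7, 36.8 and 44.5 in stimulated Ikzf1-cko. All Ikzf1-cko libraries lay above all WT libraries (log2 fold change 0.83 ± 0.16, FDR = 7.73e-05). OCR_2147 had 5.74, 6.60 and 8.09 FPKM against 13.0, 11.9 and 14.3 (0.96 ± 0.18, FDR = 7.08e-05). Both Icos differences passed in all 21 alternatives. Over the locus 15 members were higher and 4 lower with no overlap between the stimulated genotypes, against 23.2% and 34.0% of all tested regions. The 4 include OCR_2069 and OCR_2113, which were tested only through WT libraries.

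**Figure D2:**
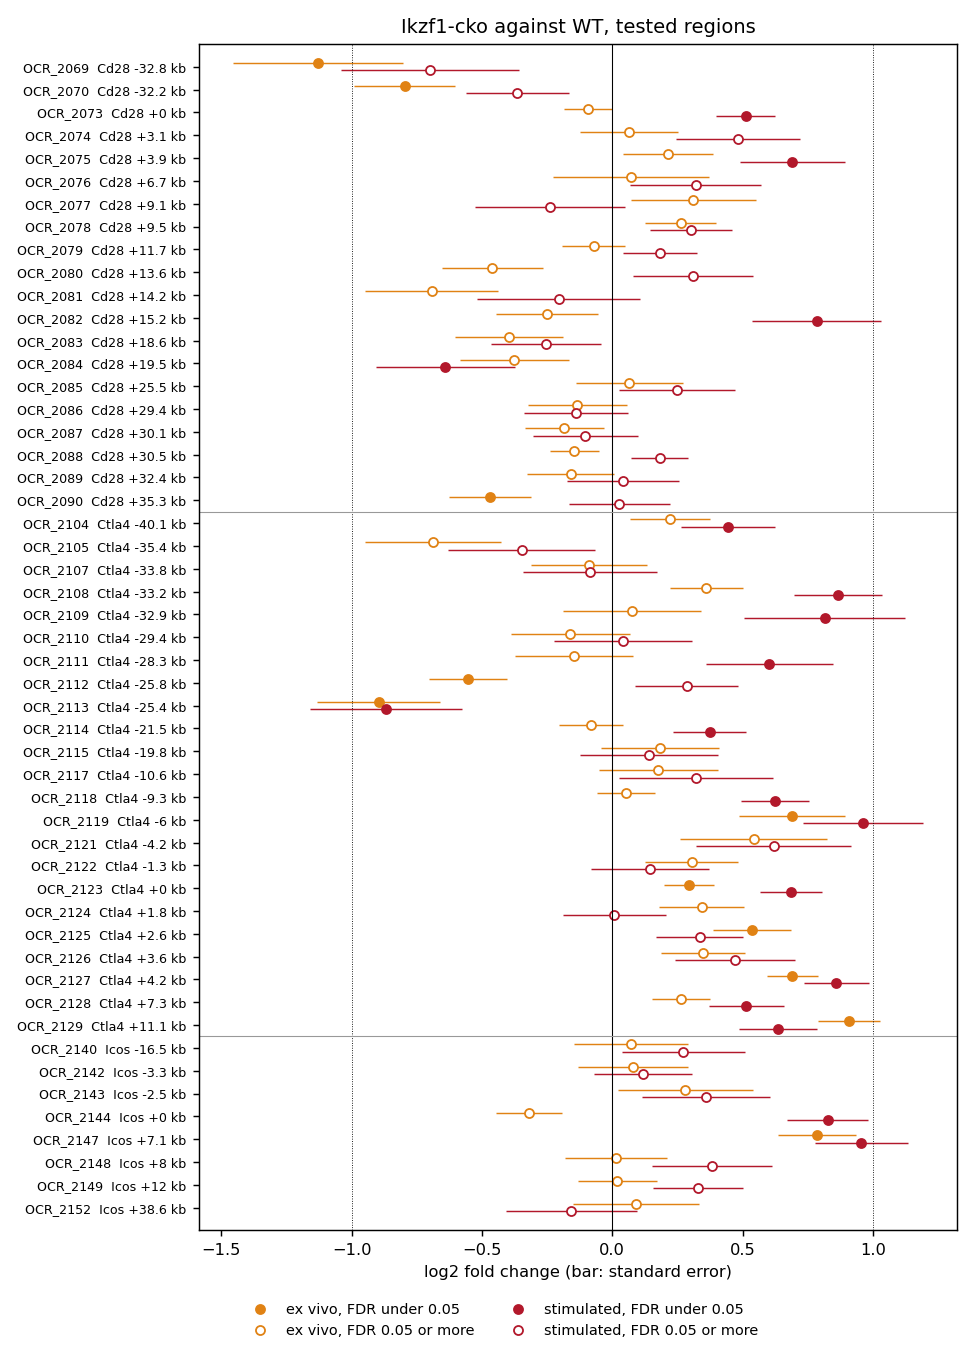
Log2 fold change of Ikzf1-cko over WT (points, with SE bars) for the 51 tested members in order along the chromosome, for ex vivo and stimulated Treg, with filled points at an FDR under 0.05. OCR_2127, OCR_2129 and OCR_2147 are above 0 and past the FDR in both states. OCR_2113, which reached 3.6 CPM in WT libraries only, is below 0 in both.

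Stimulation was then compared with the ex vivo state within each genotype. These comparisons use the same libraries as those between genotypes and are not independent of them. In WT Treg accessibility fell over much of the locus, with the starts of all 3 genes and regions in and downstream of the Ctla4 body among those that fell, whereas a region in Cd28 intron 1 and one upstream of Icos rose. At an FDR under 0.05, 24 of 51 members fell and 2 rose, against 47.6% of all tested regions, made up of 20.7% that fell and 26.9% that rose. With the fold limit, 5 members fell and 1 rose, against 20% of all tested regions (14011 of 69957), made up of 2.32% that fell and 17.7% that rose. The number called was 11 without WT stimulated replicate 2, against 14929 of the 69957 tested regions. It was 2 without WT stimulated replicate 3, against 13434, and 3 without WT ex vivo replicate 3, against 11420. The median log2 fold change was -0.44 over the members and 0.04 over all tested regions, and among regions with at least 3.6 CPM in all 12 libraries (24 members of 34257) it was -0.59 and -0.19.

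In Ikzf1-cko Treg 14 of 51 members fell and 4 rose at an FDR under 0.05, against 23.5% of all tested regions, made up of 11.5% that fell and a similar share that rose. With the fold limit 1 fell and 1 rose, against 3.65% of all tested regions, made up of 0.632% that fell and 3.02% that rose. Without Ikzf1-cko stimulated replicate 1, 1 member in all was called, against 1520 of the 69957 tested regions. The median was -0.19 over the members and 0.06 over all tested regions. In both genotypes, then, the median of the members was below that of all tested regions.

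The largest fall of the locus in each genotype lay in the Ctla4 body. OCR_2126 (chr1:60969476-60969822, over exon 2 and intron 2) went from 20.5, 25.2 and 33.5 FPKM to 12.9, 13.2 and 10.2 in WT (log2 fold change -1.15 ± 0.22, FDR = 0.000138), and from 34.5, 41.1 and 27.3 to 15.9, 16.7 and 17.8 in Ikzf1-cko (-1.03 ± 0.16, FDR = 2.43e-05). It was called in both genotypes. OCR_2127 fell by 1.05 ± 0.13 on the log2 scale in WT (FDR = 1.47e-07) and by 0.88 ± 0.09 in Ikzf1-cko (FDR = 3.83e-08). In the 2 regions downstream, OCR_2128 fell by 1.03 ± 0.14 in WT (FDR = 1.42e-06) and 0.78 ± 0.11 in Ikzf1-cko (FDR = 5.91e-06), and OCR_2129 fell by 0.62 ± 0.16 (FDR = 0.00185) and 0.89 ± 0.11 (FDR = 4.80e-07). All of these passed in every alternative run. At the Ctla4 start the fall was 0.86 ± 0.12 in WT (FDR = 1.96e-06) and 0.46 ± 0.09 in Ikzf1-cko (FDR = 0.000418). An exception within the gene was OCR_2125 in intron 1, at 26.1, 34.9 and 28.5 FPKM ex vivo and 33.3, 27.4 and 25.1 stimulated in WT, which overlap (-0.06 ± 0.18, FDR = 0.805). OCR_2124, also in intron 1, fell in Ikzf1-cko (-0.71 ± 0.16, FDR = 0.00136) and did not pass in WT (-0.37 ± 0.20, FDR = 0.127).

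At Cd28 the start fell by 0.89 ± 0.11 on the log2 scale in WT (FDR = 2.68e-07) and by 0.29 ± 0.09 in Ikzf1-cko (FDR = 0.0200), the second of which did not pass in 6 of 21 alternatives. OCR_2088 (chr1:60833743-60834779), downstream of Cd28 over the noncoding gene Gm11579, fell in WT (-0.66 ± 0.11, FDR = 1.57e-05) and in Ikzf1-cko (-0.34 ± 0.09, FDR = 0.00810), the second of which did not pass in 3 of 21 alternatives. OCR_2082 was called lower in WT, from 12.5, 15.1 and 13.7 FPKM to 4.23, 11.1 and 5.32 (-1.01 ± 0.25, FDR = 0.00164), and had a value near 0 in Ikzf1-cko (0.02 ± 0.19, FDR = 0.940). The WT stimulated replicate 2 lay well above the other two at this region.

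OCR_2076 (chr1:60809862-60810170), in Cd28 intron 1 at 6.7 kb past the start, rose in both genotypes. It went from 4.98, 6.86 and 8.28 FPKM to 11.2, 20.7 and 11.4 in WT, and from 7.80, 7.29 and 6.64 to 14.0, 17.5 and 22.3 in Ikzf1-cko, on 8 to 37 reads ex vivo and 17 to 79 after stimulation. No stimulated library overlapped the ex vivo ones, and the log2 fold change was 1.06 ± 0.31 in WT (FDR = 0.00529) and 1.31 ± 0.24 in Ikzf1-cko (FDR = 0.000147). In WT the value was 0.71 with an FDR of 0.0926 without WT stimulated replicate 2, and the FDR was 0.0623 after loess normalization. In Ikzf1-cko it passed in all 20 alternatives. OCR_2076 reached 3.6 CPM in 4 libraries, all of them stimulated, so it was tested only through the state in which it was higher.

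Upstream of Icos, OCR_2142 (chr1:61030911-61031476), 3.3 kb before the start, rose from 7.48, 10.3 and 5.55 FPKM to 12.9, 15.2 and 13.6 in WT and from 6.56, 9.89 and 8.16 to 15.5, 14.0 and 15.6 in Ikzf1-cko. The states did not overlap in either genotype, at log2 fold changes of 0.84 ± 0.22 (FDR = 0.00252) and 0.88 ± 0.17 (FDR = 0.000389), and both passed in all 20 alternatives. The neighbouring OCR_2143 rose in Ikzf1-cko (0.69 ± 0.21, FDR = 0.0179), where it no longer passed in 5 of 20 alternatives, and did not pass in WT (0.62 ± 0.29, FDR = 0.0758). The Icos start fell by 1.00 ± 0.16 in WT (FDR = 1.08e-05) while its value in Ikzf1-cko was 0.15 ± 0.12 (FDR = 0.402). In WT Treg, then, the Icos start and the region 3.3 kb before it changed in opposite directions. In the upstream part of Ctla4, OCR_2112 fell in WT, from 29.1, 36.9 and 38.0 FPKM to 14.9, 21.8 and 10.48 (-1.14 ± 0.19, FDR = 1.70e-05), and had a value of -0.31 ± 0.16 in Ikzf1-cko (FDR = 0.153).

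Without overlap between the states, 3 members were higher and 25 lower in stimulated WT, against 29.8% and 24.3% of all tested regions, and 6 were higher and 17 lower in stimulated Ikzf1-cko, against 20.4% and 17.3%. Summed over all regions of a window, the RPM (reads scaled by the counted reads of the library) at Ctla4 were 282 ± 11.8 (SD, n = 3) ex vivo and 179 ± 28.7 stimulated in WT, and 340 ± 25.4 and 251 ± 9.26 in Ikzf1-cko, sums for which no test was made. They were 220 ± 12.8 ex vivo and 160 ± 33.8 stimulated in WT at Cd28, and 200 ± 10.3 and 180 ± 5.46 in Ikzf1-cko. At Icos they were 67.9 ± 3.02 and 59.3 ± 8.98 in WT, and 72.2 ± 2.62 and 80.5 ± 5.05 in Ikzf1-cko.

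**Figure D3:**
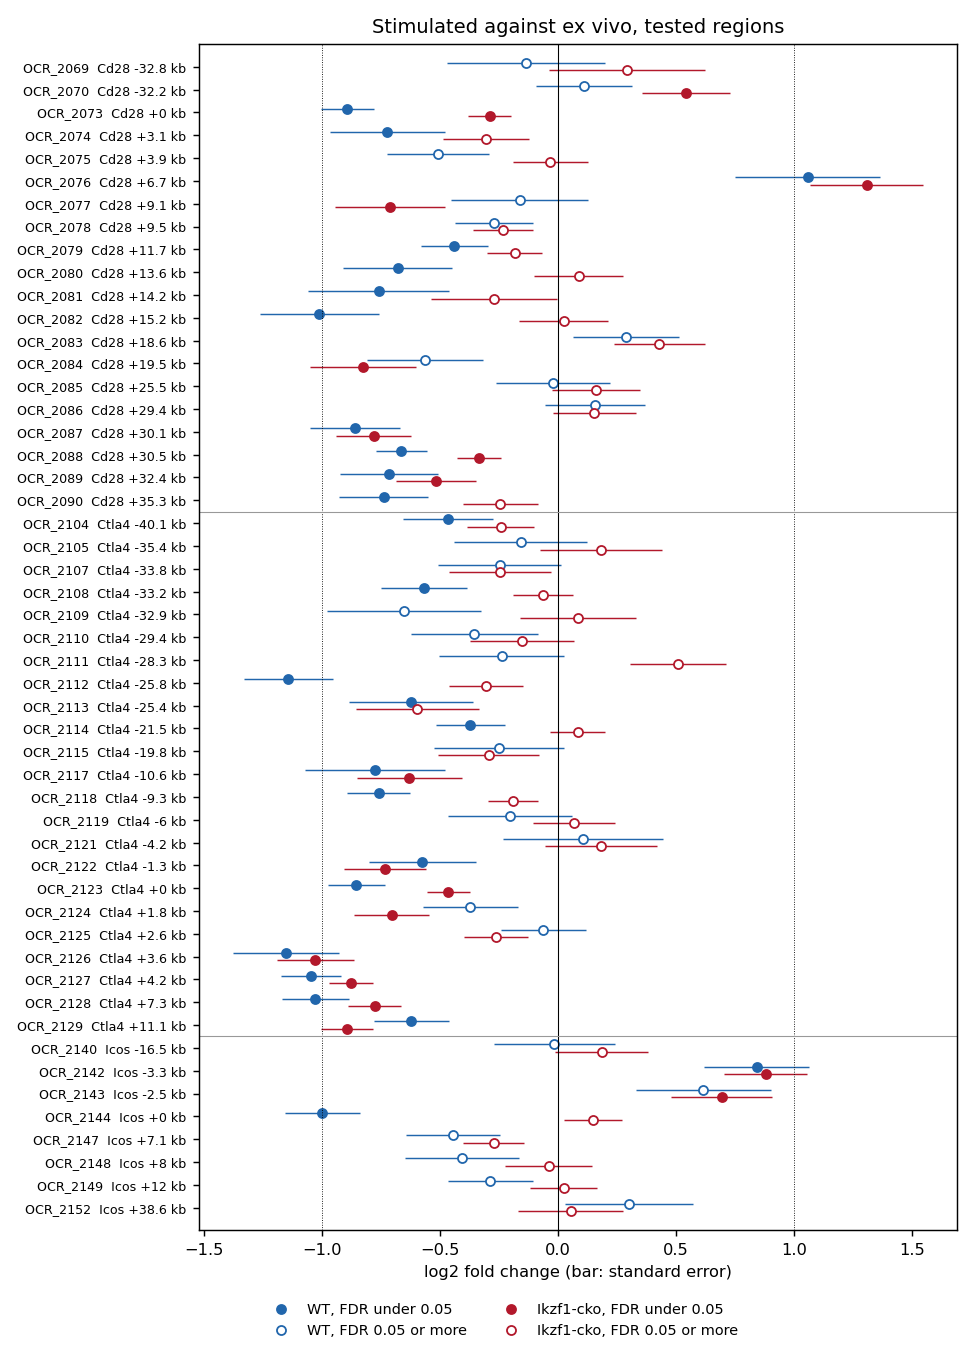
Log2 fold change of stimulated over ex vivo Treg (points, with SE bars) for the 51 tested members in order along the chromosome, for WT and Ikzf1-cko, with filled points at an FDR under 0.05. OCR_2126, OCR_2127, OCR_2128 and OCR_2129 at Ctla4 lie below 0 in both genotypes, and OCR_2076 and OCR_2142 lie above 0 in both.

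Whether stimulation acted differently in the genotypes was tested by the interaction, the log2 fold change on stimulation in Ikzf1-cko minus that in WT. It was positive for 42 of 51 members and for 35006 of the 69957 tested regions, with medians of 0.22 and 0.00, and in regions with at least 3.6 CPM in all 12 libraries the medians were 0.25 and 0.15. At an FDR under 0.05 it was positive for 5 members and negative for none, against 7.48% of all tested regions, made up of 5.66% positive and 1.82% negative. At an unadjusted p under 0.05 it was positive for 11 members and negative for 0, against 24.5% of all tested regions, made up of 14.0% positive and 10.5% negative. DESeq2 and limma each gave 2 positive and 0 negative at an FDR under 0.05, where 2.81% and 3.77% of all tested regions were positive. Without WT stimulated replicate 2 the number at an FDR under 0.05 was 12, all positive. Of all 69957 tested regions 4512 were then positive and 1681 negative. Without WT stimulated replicate 1 the number was 1, against 2042 positive and 334 negative. Without each of the other libraries it was 2 to 5, against 1910 to 4761 positive and 252 to 3118 negative. With the fold limit 2 members were called, the Icos start and OCR_2082, against 1.98% of all tested regions, made up of 0.579% positive and 1.40% negative.

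The Icos start was the clearest of these. It fell on stimulation in WT, from 36.2, 44.9 and 50.5 to 21.5, 26.3 and 18.8 FPKM, and stood at 38.8, 36.3 and 31.5 before and 36.7, 36.8 and 44.5 after stimulation in Ikzf1-cko. The interaction was 1.15 ± 0.20 (FDR = 0.000729) and passed in all 20 alternatives, at 0.97 to 1.28. At the Cd28 start it was 0.60 ± 0.15 (FDR = 0.00979), with 0.39 and an FDR of 0.0774 after loess normalization, and an FDR of 0.0731 without WT stimulated replicate 1. At the Ctla4 start it was 0.39 ± 0.15 and did not pass (FDR = 0.111). The other 3 that passed were OCR_2112 (0.84 ± 0.25, FDR = 0.0330), OCR_2118 (0.57 ± 0.17, FDR = 0.0385) and OCR_2082 (1.04 ± 0.32, FDR = 0.0408), and each of these no longer passed in 12 to 14 of 19 or 20 alternatives. After loess normalization their values were 0.75 (FDR = 0.0750), 0.35 (FDR = 0.182) and 1.04 (FDR = 0.0582).

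**Figure D4:**
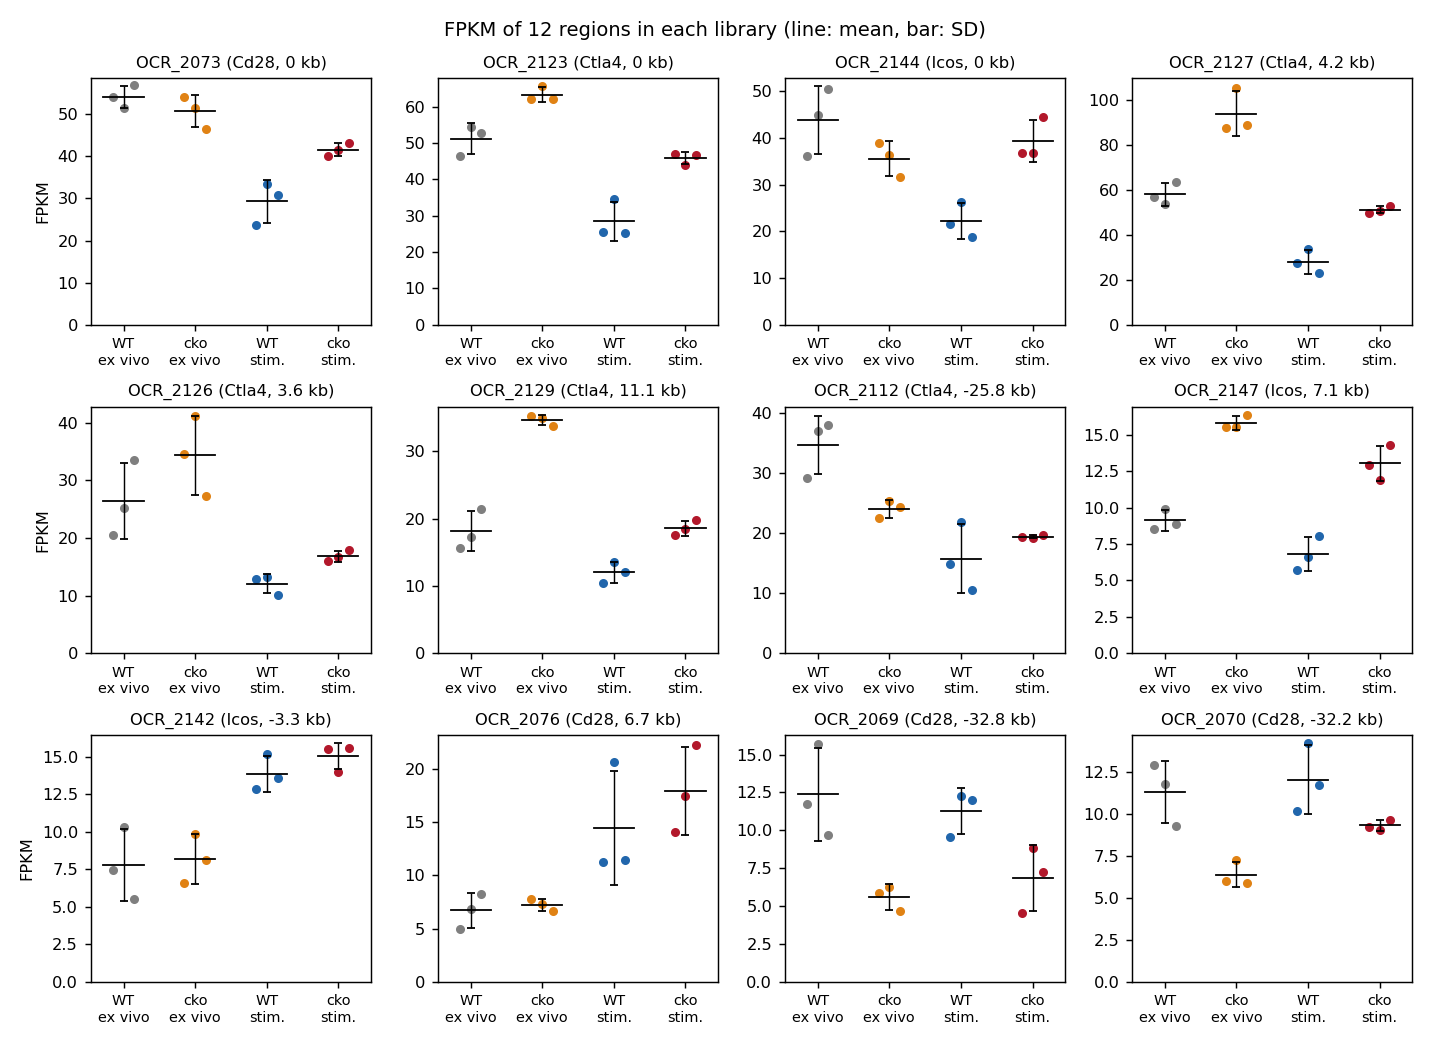
FPKM of 12 selected members in each of the 12 libraries (points) with the group mean (line) and SD (bar, n = 3), in 1 panel for each region, titled with its distance in kb from the coding start; cko stands for Ikzf1-cko and stim. for stimulated. At the Icos start (OCR_2144) the 3 stimulated WT libraries, at 18.8 to 26.3 FPKM, lie below the other 9, and at OCR_2129 the 3 ex vivo Ikzf1-cko libraries, at 33.8 to 35.2 FPKM, lie above all others.

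The other 12 members did not reach 3.6 CPM in 3 libraries. In a fit without that filter, in which the FDR is taken over 118480 regions, 4 of them passed in at least 1 comparison. Of all regions in that fit 32.3% rose on stimulation in WT and 11.7% in Ikzf1-cko, 4.92% were higher in Ikzf1-cko ex vivo and 12.1% in stimulated cells. OCR_2072 (chr1:60778368-60778678), 24.5 kb before the coding start of Cd28, had 1 to 6 reads in each ex vivo library and 8 to 26 in each stimulated one. Its level went from 0.619, 1.28 and 2.24 FPKM to 4.25, 11.7 and 8.69 in WT, and from 1.05, 1.40 and 1.65 to 9.07, 7.53 and 5.33 in Ikzf1-cko, with no overlap (log2 fold change 2.42 ± 0.53, FDR = 0.000629, and 2.39 ± 0.44, FDR = 0.000344). OCR_2120 (chr1:60959983-60960138), 5.7 kb before the Ctla4 start and next to OCR_2119, had 13.6, 13.6 and 8.95 FPKM in ex vivo WT and 25.05, 32.1 and 23.0 in ex vivo Ikzf1-cko (1.18 ± 0.27, FDR = 0.00378). OCR_2146 in Icos intron 1 had 7.64, 5.37 and 5.24 FPKM in stimulated WT against 11.4, 14.1 and 13.6 in stimulated Ikzf1-cko (1.08 ± 0.33, FDR = 0.00779), and OCR_2071 upstream of Cd28 rose on stimulation in Ikzf1-cko (1.01 ± 0.34, FDR = 0.0356).

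For the genes that act with these receptors, 19 genes with the same 20 kb windows held 322 regions, of which 214 were tested. Ex vivo 32 of the 214 were higher and 19 lower in Ikzf1-cko at an FDR under 0.05, against 8.78% and 12.7% of all tested regions. In stimulated cells 59 were higher and 10 lower, against 20.4% and 30.7%. After stimulation 21 were higher and 60 lower in WT, against 26.9% and 20.7%, and 28 were higher and 23 lower in Ikzf1-cko, against 23.5% in either direction. The interaction was positive for 12 and negative for 1, against 5.66% and 1.82%. The medians were 0.02 ex vivo, 0.14 in stimulated cells, -0.21 for stimulation in WT, 0.02 for stimulation in Ikzf1-cko and 0.19 for the interaction, where those of all tested regions were -0.13, -0.11, 0.04, 0.06 and 0.00.

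Among the ligands (Cd80, Cd86 and Icosl), 4 of 24 tested regions were higher and 2 lower in ex vivo Ikzf1-cko, and 9 were higher and 0 lower in stimulated Ikzf1-cko. The shares of all tested regions to set beside these counts and those of the other groups of genes are 8.78% higher and 12.7% lower ex vivo, and 20.4% higher and 30.7% lower in stimulated cells. At Cd86 the region OCR_45445 was higher in Ikzf1-cko ex vivo (0.97 ± 0.14, FDR = 9.69e-06) and after stimulation (1.20 ± 0.20, FDR = 1.80e-05), and at Cd80 OCR_45547 was higher after stimulation (1.36 ± 0.22, FDR = 1.07e-05). Of the 14 tested regions at Cd86, however, 2 were higher and 2 lower ex vivo, with a median log2 fold change of -0.16. In stimulated cells 5 of them were higher and 0 lower, with a median of 0.29. The other receptors of the family gave 8 of 16 regions higher and 1 lower ex vivo. All 8 lie at Pdcd1, which encodes the inhibitory receptor PD-1 and had 9 tested regions (median log2 fold change 0.55 ex vivo and 0.68 in stimulated cells, where 8 were higher as well), and the 1 at Btla, which encodes another inhibitory receptor.

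The genes of intracellular signaling, among them Lck, Vav1 and Pik3r1, gave 17 of 141 regions higher and 9 lower ex vivo, and 31 higher and 9 lower in stimulated cells. At Pik3r1, which encodes a regulatory subunit of phosphoinositide 3-kinase, 5 of 22 regions were higher and 1 lower ex vivo, and 12 were higher and 1 lower in stimulated cells. Of the genes that govern the traffic of CTLA-4 to and from the cell surface (Lrba, Def6, Ap2m1 and Trat1), 3 of 33 regions were higher and 7 lower ex vivo, and 9 were higher and 1 lower in stimulated cells. At Trat1, whose product TRIM binds CTLA-4 and promotes its transport to the surface, 5 of the 15 tested regions were lower ex vivo and 0 higher, with OCR_45992 at -1.24 ± 0.24 (FDR = 0.000488). In stimulated cells 3 of the 15 were higher and 0 lower, with OCR_46002 at 0.61 ± 0.12 (FDR = 0.000141).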

How the data were processed

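ATAC-seq libraries of sorted YFP+ Treg were placed in 4 groups of 3 by their sample labels. According to the methods and the labels, the ENCODE pipeline for ATAC-seq was run by the authors with Bowtie2 alignment and removal of duplicates, MACS2 peaks were called per replicate and cleared of blacklisted places, and peaks found in at least 2 replicates were merged. The labels give mm9 as the build whereas the methods print a human build, and the deposited regions have mouse chromosomes. The authors deposited a read count per region and library, without normalization. The deposited FPKM is this count per kb of region, scaled by the sum of the library's counts. A further deposited table holds the log2 fold change, F score, p-value and FDR of regions past the authors' thresholds and was not used.

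Counts were fitted in edgeR 4.0.16 under R 4.3.3 (quasi-likelihood test, Benjamini-Hochberg adjustment) over all 12 libraries, with library totals as the scaling and 24.4 prior degrees of freedom, on the 69957 regions in which 3 or more libraries reached 3.6 CPM. A region was called at an FDR under 0.05 with an absolute log2 fold change over 1. Standard errors were taken from the log2 fold change and F (its absolute value over the root of F). Alternatives were TMM, loess, DESeq2 1.42.0, limma 3.58.1 on log2(FPKM + 1), other filters, thinned counts, a replicate block, the compared libraries alone and leaving out each library. The study's normalization on background bins needs reads outside these regions and was not repeated. Genes came from GENCODE vM1 (mm9), and Python 3.11.15, NumPy 2.4.6, pandas 2.3.3 and Matplotlib 3.10.9 were used for the rest.

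The members, the pathway list, the motifs and the alternatives were chosen with earlier results of these data known. Regions named are those over the 3 coding starts, the called members, the member with the smallest p of each window and comparison, and the 5 with the highest level. OCR_2071, OCR_2072, OCR_2090, OCR_2105, OCR_2108, OCR_2113, OCR_2114, OCR_2118, OCR_2119, OCR_2120, OCR_2125, OCR_2143 and OCR_2146, and the genes of the pathway list described singly, were named after their values were seen. 1 gene of the pathway list is not reported here, and the counts over that list were made without it.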

Additional observations from a re-analysis of the deposited data

Results flagged for a closer look

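The response to stimulation differed between the genotypes at 5 members, by the interaction term of the quasi-likelihood fit in edgeR (Benjamini-Hochberg FDR over all tested regions), 5 of 51 tested members against 7.48% of all tested regions, made up of 5.66% positive and 1.82% negative. At the Icos start (OCR_2144) the difference in log2 fold change, Ikzf1-cko minus WT, was 1.15 ± 0.20 (SE, FDR = 0.000729). It was 0.60 ± 0.15 at the Cd28 start (OCR_2073, FDR = 0.00979) and 0.84 ± 0.25 at OCR_2112, upstream of Ctla4 (FDR = 0.0330). At OCR_2118, between the upstream and the coding start of Ctla4, it was 0.57 ± 0.17 (FDR = 0.0385), and at OCR_2082 in Cd28 intron 1 it was 1.04 ± 0.32 (FDR = 0.0408). All 5 were positive, and each rests on the 3 stimulated WT libraries, whose reads are spread more evenly over regions than those of the other 9 libraries. The part of that spread in these values was not tested beyond the loess normalization, after which the Icos start passed the FDR and the other 4 did not. The values were then 0.39 at the Cd28 start (FDR = 0.0774), 0.75 at OCR_2112 (FDR = 0.0750), 0.35 at OCR_2118 (FDR = 0.182) and 1.04 at OCR_2082 (FDR = 0.0582), so that the size changed little at OCR_2112 and OCR_2082.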

How the results depend on the processing

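The number of called members was 1 ex vivo and 0 in stimulated cells between genotypes, 6 for stimulation in WT, 2 for stimulation in Ikzf1-cko and 2 for the interaction. The shares of all tested regions were, in this order, 4.63, 21.3, 20, 3.65 and 1.98%. TMM scaling gave 2 ex vivo, 2 in stimulated cells and 1 for the interaction, and DESeq2 gave the same 3 counts. Of all tested regions 3.56, 20.7 and 2.20% were called under TMM scaling, and 3.44, 20.5 and 0.983% in DESeq2. Loess normalization gave 0 ex vivo, 2 in stimulated cells, 1 for stimulation in Ikzf1-cko and 0 for the interaction, and limma gave 1 for each of the last 2 of these. The shares of all tested regions were 2.28, 6.76, 2.15 and 1.27% after loess normalization, and 1.60 and 1.41% in limma. Without the filter the counts were 2 ex vivo, 1 in stimulated cells, 4 for stimulation in Ikzf1-cko and 1 for the interaction. Of all regions in that fit 6.11, 28.1, 6.64 and 1.24% were called. With at least 3.6 CPM in all 12 libraries, which leaves 24 members, they were 0 ex vivo, 0 in stimulated cells, 3 for stimulation in WT, 0 for stimulation in Ikzf1-cko and 1 for the interaction. Of the 34257 regions left by that filter 339, 858, 1239, 276 and 314 were called. In counts thinned to the smallest library they were 2 ex vivo, 4 in stimulated cells and 1 for the interaction. Of all 69957 tested regions 3093, 14935 and 1108 were then called. An FDR under 0.05 alone gave 11, 18, 26, 18 and 5 in the order of the first sentence. The shares of all tested regions were then 21.5, 51.0, 47.6, 23.5 and 7.48%. Leaving out 1 library at a time gave 0 to 2 ex vivo, 0 to 4 in stimulated cells, 2 to 11 for stimulation in WT, 1 to 2 for stimulation in Ikzf1-cko and 1 to 4 for the interaction. Of all 69957 tested regions 2018 to 8726, 13483 to 16297, 11420 to 15046, 1520 to 6792 and 486 to 3376 were then called. The cause of these changes was not tested.

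Over all tested regions, loess normalization changed the called regions from 411 higher and 2827 lower to 863 and 730 ex vivo, from 813 and 14119 to 1611 and 3120 in stimulated cells, from 12386 and 1625 to 2967 and 2004 for stimulation in WT, from 2113 and 442 to 821 and 682 for stimulation in Ikzf1-cko, and from 405 and 980 to 387 and 499 for the interaction. The log2 fold changes of the members that had passed the FDR, named or not, kept their direction in every alternative run. Of all pairs of such a member and an alternative, 27 of 227 lost significance ex vivo (11 members), 49 of 372 in stimulated cells (18 members), 52 of 536 for stimulation in WT (26 members), 40 of 369 for stimulation in Ikzf1-cko (18 members) and 40 of 99 for the interaction (5 members).

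With the replicate number as a block, the counts of called members were 1, 0, 6, 2 and 2, equal to those without it. Of all 69957 tested regions 3073, 14912, 13889, 2316 and 1158 were called in that fit. Deviations from the group means of libraries with the same number correlated at -0.355 to 0.284 over 18 pairs, with 6 pairs over 0.1, so that the numbers were not taken to pair the libraries. Depth limits the weaker members, since WT libraries held fewer reads than all Ikzf1-cko libraries, and nothing in the sources used here says whether libraries were prepared in batches.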

Other observations

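The start regions whose levels most resembled those of the 3 genes over the 12 libraries were found by the Pearson correlation of log2(CPM + 1) among 12623 tested regions over the start of a protein-coding gene. For the Cd28 start they belonged to Zfp54 (r = 0.991), C130039O16Rik (r = 0.988) and Hint3 (r = 0.981). For the Ctla4 start they belonged to Vamp4 (r = 0.986), Adnp2 (r = 0.984) and Dgat1 (r = 0.984), and for the Icos start to Itm2a (r = 0.953), Gm9875 (r = 0.953) and a region shared by C230062I16Rik and Zfp74 (r = 0.952). The libraries share depth and composition within a group, and these values describe likeness over 12 libraries only.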
